A study of Mus musculus with 8 samples.

Results

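The solute carriers are a large superfamily of membrane transport proteins, and the genes described here were those whose names on the array begin with Slc and a number or with Slco. Slc40a1, Slc11a1 and Slc11a2, which move iron and other divalent metals, were left aside. Of 372 such gene names with 611 probes on the array, 230 genes were measured, where a gene counted as measured if the scanner software marked a probe of it well above background at 12 h and at 24 h under 1 treatment or more. The other 142 genes did not pass, of which 37 were above background on 1 or more arrays and 105 on 0 arrays. Where several probes of a gene passed, the one with the highest mean signal stood for it, and 15456 genes of the whole array passed the same rule.

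The cells were RAW264.7, a mouse macrophage-like line transformed by Abelson leukaemia virus, and every comparison rests on this line alone. Total RNA was read on 8 one-colour Agilent arrays, 1 for each of 4 treatments at 12 h and 1 at 24 h. The groups were IL-13 with all-trans retinoic acid (ATRA), ATRA alone, IL-13 alone and the untreated control, and all were grown in DMEM with serum; the labels give no dose of either agent. IL-13 is a cytokine of type 2 immunity and ATRA is the ligand of the retinoic acid receptors, and the study asked how the 2 agents, alone or together, change macrophage gene expression. Each treatment thus had 2 arrays, which differed in time. The 12 h arrays lay on one slide and the 24 h arrays on another, so that the slide cannot be told apart from the time. Treatments were always compared within a time. Nothing in the labels says that the cultures were separate, so the p-values measure the spread between these arrays.

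Solute carriers move ions, nutrients, metabolites, vitamins and drugs across the plasma membrane and the membranes of organelles, mostly down a gradient or coupled to a second ion. In macrophages they supply amino acids such as arginine, glucose, lactate export, nucleotide sugars for glycosylation, and the metal and proton balance of endosomes and lysosomes. Members of a family share a fold or sequence and often, though not always, a substrate, so the 230 genes were put into 17 substrate groups by family number. The names Slc7a6os, Slc4a1ap, Slc9a3r1 and Slc9a3r2 mark neighbours, partners or regulators of carriers and not carriers themselves, and 0 of these 4 were called in any comparison.

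Signals are given as normalized signal, which is the scanner's background-subtracted signal after each array was scaled to a common 75th percentile, in array units. The 75th percentile before scaling lay between 431 and 713 over the 8 arrays, highest on the IL-13 array at 24 h, and 54.1% to 61.4% of probes were well above background. Of 8 macrophage markers 7 were measured, all on every array, with a summed signal of 268800 to 373200. Markers of T cells summed to 45.1 to 78.9 (2 of 4 measured), those of B cells to 14.5 to 30.3 (2 of 3) and those of fibroblasts to 9.50 to 35.1 (1 of 3), with 0 of 3 epithelial markers measured. The IL-13 array at 24 h had the lowest sum for each of those 3 lists. Cish, a feedback inhibitor induced through STAT signalling, was at least 175-fold higher with IL-13 than in control, and Rarb, a retinoic acid receptor and target gene, was higher with ATRA than in control by 1.81 on the log2 scale.

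Most of the measured carriers were present whatever the treatment. The probe was well above background on all 8 arrays for 201 of the 230 genes and on fewer for 29, of which 15 passed through both arrays of exactly 1 treatment. Among the larger groups coverage was high for organelle, vitamin and metal carriers, with 40 of 46 mitochondrial carriers, 21 of 26 nucleotide sugar carriers, 11 of 12 vitamin and heme carriers and 23 of 29 zinc, copper and magnesium carriers measured. Coverage was lower for organic ion carriers, known mostly from epithelia, and for the SLC6 family, known mostly from neurons. Of carriers of organic anions, cations and bile acids 19 of 48 were measured, and of sodium-coupled SLC6 carriers 8 of 20. A gene that passed through 1 treatment alone had to be brighter there, so such genes are pointed out where they appear.

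Changes were tested with limma, with a term for each treatment and a term for time, and a gene was called where the Benjamini-Hochberg adjusted p over all 15456 genes was under 0.05. Differences are on the log2 scale, first group minus second, with the standard error (SE) of the fit, and with 2 arrays per treatment. Over the 5 comparisons of treatments, 25 of the 230 genes were called at least once, and 16 of those were well above background on all 8 arrays. The share of all genes called at least once was not counted, so whether the 25 differ from it cannot be told. Both agents against control alone called 8.42% of all genes. Named genes were mostly picked by their calls on these same arrays. Statements below that the signals of 2 groups did not overlap are therefore descriptions and add no support, and the share of all genes without overlap is not given. Because RNA of whole cultures was measured, fewer cells of a kind and less RNA per cell cannot be told apart. A group whose arrays were all dim gives only a bound, written as at least N-fold, for which the bright group's mean was set against, on each dim array, the lowest signal that was well above background or the probe's own where higher.

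ATRA alone raised 7 solute carriers and lowered 0, and the one with the largest difference was Slco2b1, an uptake carrier of organic anions such as steroid conjugates and many drugs. The background was 1.77% of all genes called, 0.893% higher and 0.88% lower, and the members' share was 3.04%. With normexp correction 10 members were called higher and 3 lower, where 576 of all 15456 genes were called. Slco2b1 read 500 at 12 h and 425 at 24 h with ATRA, against 6.24 and 1.78 in control, where it was not well above background on either array. Its difference was 7.11 ± 0.61, which as a bound is at least 57.2-fold (adjusted p = 0.0177). The treated and control signals did not come near each other at either time.

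Slc12a5, the potassium-chloride cotransporter best known from neurons, where it keeps intracellular chloride low, read 457 and 441 with ATRA, against 44.3 and 25.6 in control, all well above background (3.74 ± 0.22, adjusted p = 0.00717). Slc26a9, a chloride transporter and channel of the SLC26 family known from airway and stomach epithelium, read 86.5 and 91.9 with ATRA, against 12.1 and 9.17 in control, where 1 of the 2 arrays was above background (3.08 ± 0.33, adjusted p = 0.0274). For both genes, as for each of the 7, all ATRA signals lay above all control signals, which largely follows from picking them by the call. Slc14a1, a urea channel of red cells and the kidney, read 42.3 and 68.3 with ATRA, against 13.3 and 12.5 in control (2.06 ± 0.26, adjusted p = 0.0346).

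The other 3 were carriers of internal membranes, with differences close to 1.1. Slc2a6, a hexose transporter family member found on lysosomes, read 10503 and 10209 with ATRA, against 4872 and 4558 in control (1.14 ± 0.13, adjusted p = 0.0283). Slc30a9, a zinc transporter family member of mitochondria, read 1268 and 1438 with ATRA, against 569 and 711 in control (1.09 ± 0.11, adjusted p = 0.0259). Slc9a9, a sodium-proton exchanger of endosomes, read 45.1 and 38.6 with ATRA, against 22 and 17.5 in control (1.09 ± 0.11, adjusted p = 0.0274). Its probe was not well above background on every array of the series. The call of Slc9a9 was lost with normexp correction, with no filter on dim probes and with no time term. The spread between the 12 h and 24 h arrays of a treatment was smaller than the treatment difference for all 3, as the call on the same arrays favours.

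Among the genes that were not called, Slc15a3, a histidine and peptide carrier of the lysosome, read 1100 and 1505 with ATRA, against 520 and 660 in control (1.14 ± 0.18, adjusted p = 0.0548). Slc7a8, which exchanges large neutral amino acids, read 1743 and 2183 with ATRA, against 1389 and 579 in control (1.12 ± 0.36, adjusted p = 0.235), with a wide gap between the control arrays of 12 h and 24 h. Slc25a41, a mitochondrial ATP-magnesium and phosphate carrier family member that passed the rule through ATRA alone, differed by 1.67 ± 0.55 (adjusted p = 0.246). At the unadjusted level 53 members (23.04%, against 15.1% of all genes) had p under 0.05. The median difference was 0.03 over the members and -0.01 over all genes tested, and the count of members with a 2-fold or larger difference at both times was 9 higher and 3 lower (2.61% of all genes in either direction). Fewer members were called when any 1 array of ATRA, control or both agents was left out, and fewer of all genes as well. Both counts were lowest without the control array at 24 h.

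**Figure D1:**
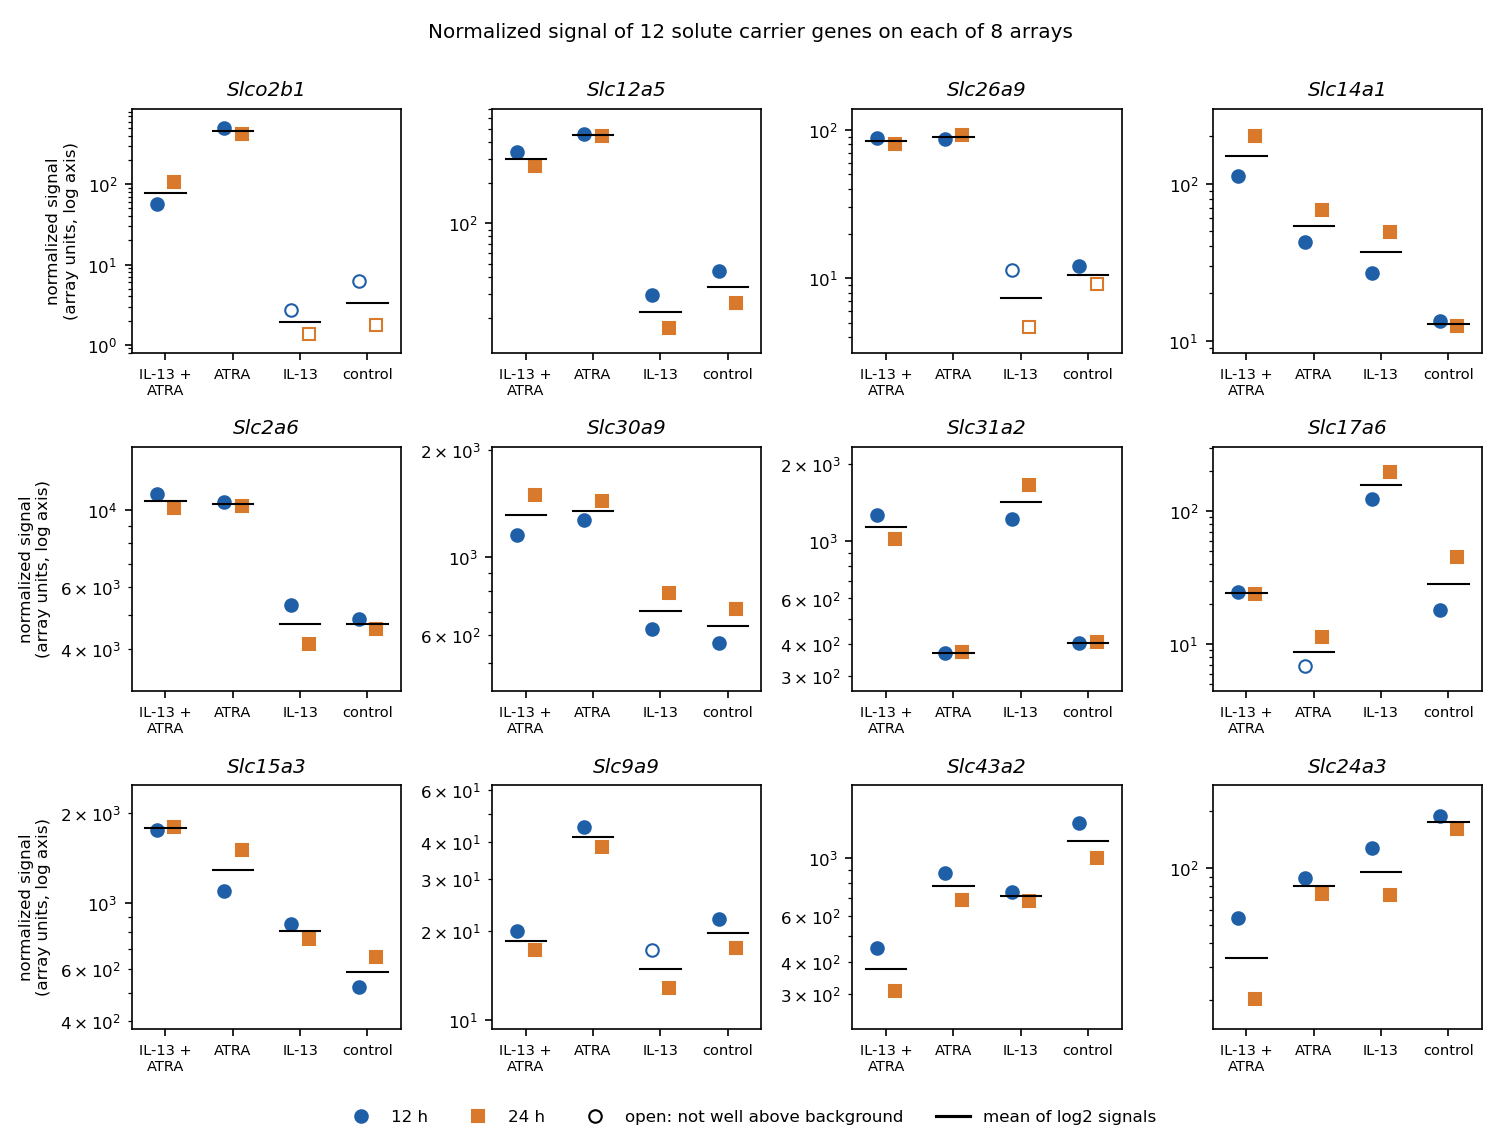
Normalized signal in array units, on a log axis, of 12 called genes on each of the 8 arrays, with circles for 12 h, squares for 24 h, open symbols for probes not well above background and a bar at the mean of the 2 log2 signals. Slco2b1, Slc12a5, Slc26a9, Slc2a6 and Slc30a9 were high in both treatments that hold ATRA, and Slc31a2 was high in both that hold IL-13.

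The probes of these genes are placed by the annotation in the array files on build mm9, which does not say which exon or untranslated part they match. The probe of Slco2b1 lies at chr7:106807008-106807067, that of Slc12a5 at chr2:164825109-164825168 and that of Slc26a9 at chr1:133666246-133666305. Those of Slc2a6 and Slc30a9 lie at chr2:26877148-26877207 and chr5:67746213-67746272. RefSeq promoters (build GRCm38.p6) were matched for 5 of the 6 genes that ATRA raised both with and without IL-13. The 250 bases before the start are printed 5′ to 3′ for the 3 genes with the largest differences, to show where they hold a hexamer of the kind that retinoic acid receptors bind in pairs. The letters searched on both strands were AGGTCA as the usual form, AGTTCA as a variant inside, GGGTCA as a variant at the first letter and GGTTCA as a variant in both places, which do not overlap one another here, and a match is in capitals as it reads on the gene's strand.
Slco2b1 start 1, chr7:99711341-99711590, minus strand: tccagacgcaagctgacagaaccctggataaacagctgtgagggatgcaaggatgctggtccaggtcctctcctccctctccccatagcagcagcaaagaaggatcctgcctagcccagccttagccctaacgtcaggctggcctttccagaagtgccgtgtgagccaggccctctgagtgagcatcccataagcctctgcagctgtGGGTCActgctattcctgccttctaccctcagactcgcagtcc
Slco2b1 start 2, chr7:99706843-99707092, minus strand: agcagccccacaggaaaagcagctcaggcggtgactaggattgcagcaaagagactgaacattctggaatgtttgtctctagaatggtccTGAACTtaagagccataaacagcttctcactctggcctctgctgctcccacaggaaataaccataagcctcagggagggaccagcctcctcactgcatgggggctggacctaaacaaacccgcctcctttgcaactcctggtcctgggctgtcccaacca
Slco2b1 start 3, chr7:99695810-99696059, minus strand: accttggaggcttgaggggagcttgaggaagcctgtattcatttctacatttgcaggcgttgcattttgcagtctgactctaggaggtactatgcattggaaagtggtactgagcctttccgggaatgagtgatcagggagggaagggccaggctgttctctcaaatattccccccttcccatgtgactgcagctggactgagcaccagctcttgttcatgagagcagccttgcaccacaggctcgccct
Slc12a5 start 1, chr2:164960596-164960845, plus strand: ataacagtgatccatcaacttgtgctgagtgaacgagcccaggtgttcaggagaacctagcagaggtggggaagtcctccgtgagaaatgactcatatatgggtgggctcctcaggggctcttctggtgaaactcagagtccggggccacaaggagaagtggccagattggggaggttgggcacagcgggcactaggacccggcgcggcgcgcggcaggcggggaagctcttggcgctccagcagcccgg
Slc12a5 start 2, chr2:164967738-164967987, plus strand: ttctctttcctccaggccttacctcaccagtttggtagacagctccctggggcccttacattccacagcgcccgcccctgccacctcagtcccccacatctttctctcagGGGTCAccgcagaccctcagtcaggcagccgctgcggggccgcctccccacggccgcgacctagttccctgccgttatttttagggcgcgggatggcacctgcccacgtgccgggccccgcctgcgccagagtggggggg
Slc26a9, chr1:131743772-131744021, plus strand: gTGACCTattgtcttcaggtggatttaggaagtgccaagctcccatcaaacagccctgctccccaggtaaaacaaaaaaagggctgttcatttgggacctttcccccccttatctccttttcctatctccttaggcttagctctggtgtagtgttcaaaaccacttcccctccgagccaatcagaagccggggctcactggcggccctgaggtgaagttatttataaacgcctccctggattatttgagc
In these 6 windows, start 1 of Slco2b1 holds GGGTCA beginning 43 bases before the start, and its start 2 holds AGTTCA on the opposite strand beginning 160 bases before it. Start 2 of Slc12a5 holds GGGTCA beginning 140 bases before it, and Slc26a9 holds AGGTCA on the opposite strand beginning 249 bases before it. Slc30a9 holds GGTTCA 223 bases before its start, and the window of Slc2a6 holds none of the 4. In all, 5 of 8 starts of the 5 genes held a match, against 38.6% of 32851 promoters of the same length and 40.0% of the 240 starts found for 175 of the measured carriers. AGGTCA was in 14% of all promoters, AGTTCA in 11.8%, GGGTCA in 11.6% and GGTTCA in 8.85%. A match is a description of the letters and no evidence of binding.

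ATRA added to IL-13 raised 9 solute carriers and lowered 5 relative to IL-13 alone, 14 calls (6.09% of the members) where 2.59% of all genes were called, 1.11% higher and 1.48% lower. No array is shared with the comparison of ATRA and control. Of the genes called higher, 6 were called higher there too, which is 66.7% of the 9 called with IL-13 and 85.7% of the 7 called without it; over all genes the overlap of higher calls was 59.3% and 73.9%. Slco2b1 read 57.02 and 106.6 with both agents, against 2.71 and 1.38 with IL-13, not well above background on either IL-13 array (5.33 ± 0.61, at least 8.91-fold, adjusted p = 0.0258). Slc12a5 read 338 and 264 with both agents, against 29.4 and 16.9 with IL-13 (3.74 ± 0.22, adjusted p = 0.00679). Slc26a9 read 87.8 and 79.9 with both agents, against 11.3 and 4.72 with IL-13, dim on both (at least 9.58-fold, adjusted p = 0.0161). The 2 pairs of arrays did not overlap for any of these genes, which were picked by the call on the same arrays.

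Slc14a1 (2.03 ± 0.26), Slc2a6 (1.17 ± 0.13) and Slc30a9 (0.90 ± 0.11) were the other 3 of the 6 shared calls. Slc15a3 and Slc17a9 were called higher as well. Slc15a3 read 1764 and 1797 with both agents, against 849 and 758 with IL-13 (1.15 ± 0.18, adjusted p = 0.0455), beside a difference of 1.14 between ATRA and control. Slc17a9, which loads ATP and other nucleotides into vesicles, read 822 and 712 with both agents, against 513 and 321 with IL-13 (0.91 ± 0.15, adjusted p = 0.0493). Its other passing probe gave 0.41, and this call was lost under 11 of 15 alternatives, quantile normalization and the authors' table among them. For these genes, too, both signals with both agents lay above both IL-13 signals.

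The 5 genes called lower included 4 that IL-13 had raised over control, and these 2 comparisons share the IL-13 arrays. Slc17a6, a carrier that loads glutamate into vesicles, read 24.7 and 24.1 with both agents, against 124 and 198 with IL-13 (-2.68 ± 0.31, adjusted p = 0.0259). Slc4a4, an electrogenic sodium-bicarbonate cotransporter, was well above background on both IL-13 arrays and on 0 of the other 6 arrays, with 2.14 and 1.71 for both agents, against 14 and 18.3 with IL-13 (-3.06 ± 0.19, adjusted p = 0.00679). As a bound Slc4a4 was at least 1.68-fold lower. Slc18a1, which loads amines into vesicles, was at least 1.94-fold lower (-1.64 ± 0.15), and Slc46a2, a cotransporter named from thymic stroma, at least 2.03-fold lower (-1.16 ± 0.14), both dim with both agents. Slc4a4 and Slc18a1 had passed the rule through IL-13 alone. Slc43a2, a facilitative carrier of neutral amino acids, read 453 and 308 with both agents, against 741 and 686 with IL-13 (-0.93 ± 0.14, adjusted p = 0.0424), but its second passing probe differed by -0.02.

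In this comparison 66 members (28.7%, against 19.1% of all genes) had an unadjusted p under 0.05, the median difference was 0.06 over the members and -0.02 over all genes, and 2-fold or larger differences at both times were 6 higher and 6 lower (2.77% of all genes). When any 1 array other than the IL-13 array at 12 h was left out, fewer members were called, and fewer of all genes as well. Both counts were lowest without the array of both agents at 24 h. Across the 230 members, 171 (74.3%) had an ATRA difference of the same sign with and without IL-13, close to the 71.9% of all genes, and Pearson's r across genes was 0.793, against 0.629 over all genes tested. Large differences weigh most in r, which here includes Slco2b1 at 7.11 without and 5.33 with IL-13, sizes that rest on dim arrays. Its value without such genes was not computed. For the IL-13 difference with and without ATRA, 178 members (77.4%) had the same sign against 78.9% of all genes, and r was 0.566 against 0.603. Genes are not independent, and the 4 treatments shared slides, so no p is given.

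**Figure D2:**
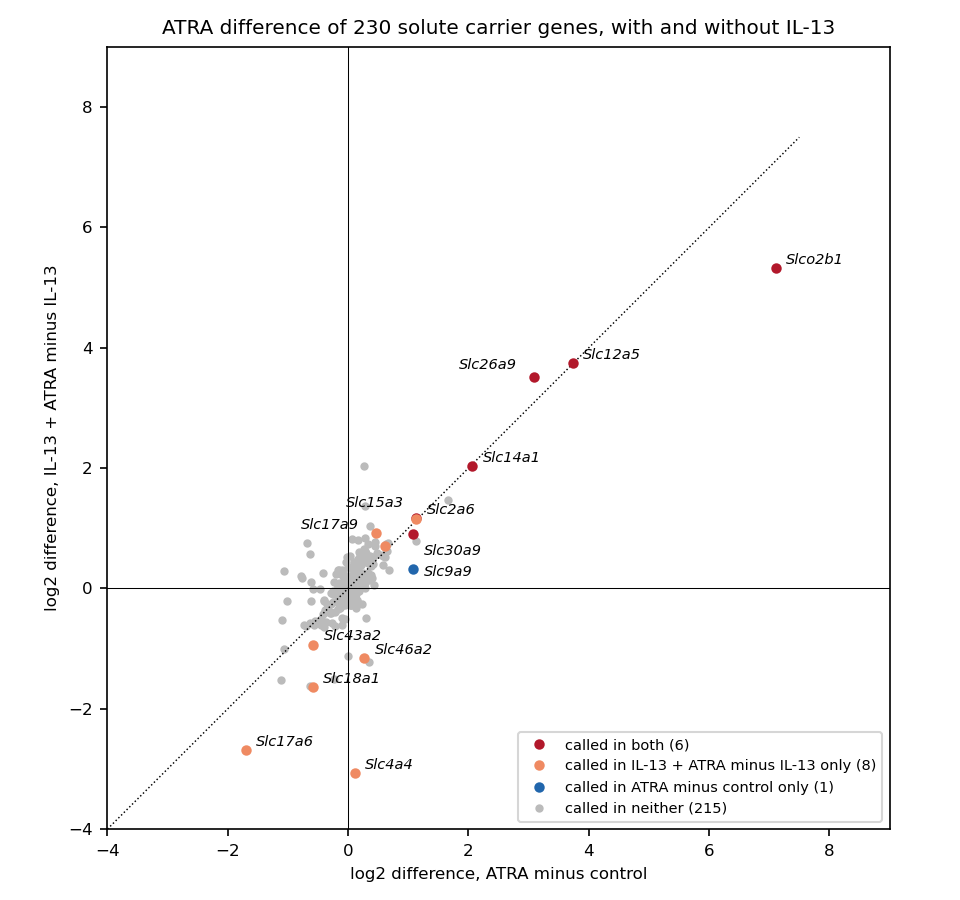
Log2 difference of the 230 measured genes, IL-13 with ATRA minus IL-13 on the vertical axis and ATRA minus control on the horizontal axis, coloured by where they were called, with a dotted line of equal differences. Of the 6 genes called in both, Slc12a5 lies at 3.74 with and without IL-13, and Slco2b1 is plotted at 5.33 with and 7.11 without it, where both arrays compared with were dim and only at least 8.91-fold and at least 57.2-fold hold. Slc4a4, the lowest point, was dim with both agents.

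IL-13 alone raised 5 solute carriers over control and lowered 0, 2.17% of the members where 1.23% of all genes were called, 0.692% higher and 0.537% lower. The split was not stable: it was 3 higher and 7 lower with normexp background correction, 2 and 4 among the genes above background on all 8 arrays, and 7 and 9 with trended and robust variance moderation. Of all genes 533, 273 and 653 were called under these alternatives, against 190 in the fit reported here. The split of those calls was not counted. Of the 5 genes, 2 (Slc4a4 and Slc18a1) had passed the rule through IL-13 alone and so had to be brighter there. Slc31a2, a copper carrier of endosomes and lysosomes, was the one of the 5 that was well above background on all 8 arrays. It read 1221 and 1660 with IL-13, against 402 and 407 in control (1.82 ± 0.19, adjusted p = 0.0291), and its other passing probe gave 1.97. Slc17a6 read 124 and 198 with IL-13, against 18 and 45.4 in control (2.45 ± 0.31, adjusted p = 0.0408), and its other passing probe gave 2.62. For both genes the IL-13 arrays lay clear of the control arrays.

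The other 3 were weak signals. Slc4a4 read 14 and 18.3 with IL-13, against 1.66 and 1.59 in control, where it was not well above background (3.30 ± 0.19, at least 1.99-fold, adjusted p = 0.0132). Slc18a1 read 19.9 and 17.2 with IL-13, against 9.94 and 8.21 in control, also dim there (at least 2.05-fold, adjusted p = 0.0496). Slc46a2 read 19.8 and 18.9 with IL-13, against 8.41 and 10.3 in control (1.06 ± 0.14, adjusted p = 0.0465). Slc6a4, the serotonin transporter, which passed the rule through IL-13 alone, read 36.7 and 23.9 with IL-13, against 6.10 and 11.7 in control, and was not called (1.81 ± 0.59, adjusted p = 0.164).

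At the unadjusted level 63 members (27.4%) had p under 0.05, near the 24.3% of all genes. The median difference was -0.05 over the members and 0.02 over all genes, and 2-fold or larger differences at both times were 6 higher and 2 lower (2.88% of all genes). Leaving out any 1 array other than the IL-13 array at 12 h gave fewer called members, and fewer of all genes as well. Both counts were lowest without a control array of either time. Of the 11 cation and chloride carriers 10 had a negative difference, with a median of -0.44, which was -0.25 with normexp correction. Of the 40 mitochondrial carriers 28 had a positive one, with a median of 0.10, which was 0.05 with quantile normalization. Over all genes 52.1% of differences were positive. IL-13 added to ATRA, on arrays that comparison does not use, gave 9 of 11 negative (median -0.33, and -0.20 with normexp) and 29 of 40 positive (median 0.12, and 0.07 with normexp) differences, where 51.9% of all genes were positive.

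IL-13 added to ATRA, against ATRA alone, gave 1 call among the members, where 0.356% of all genes were called, 0.265% higher and 0.0906% lower. Slc9a9 read 20.02 and 17.2 with both agents, against 45.1 and 38.6 with ATRA (-1.17 ± 0.11, adjusted p = 0.0342), and this call was lost under each of the 14 alternatives that could be fitted for it, with adjusted p between 0.0519 and 0.310. With normexp correction 3 other members were called, 1 higher and 2 lower, where 108 of all 15456 genes were called. The signals of Slc9a9 with both agents thus lay near those of control, 22 and 17.5. Slco2b1 read 57.02 and 106.6 with both agents, against 500 and 425 with ATRA, and was not called (-2.56 ± 0.61, adjusted p = 0.212). Slc31a2 read 1262 and 1022 with both agents, against 367 and 372 with ATRA (1.62 ± 0.19, adjusted p = 0.0590), and was not called either. For Slco2b1 and Slc31a2 the 2 pairs of arrays did not overlap, which was not counted over all genes and adds no support. At the unadjusted level 41 members (17.8%, against 13.1% of all genes) had p under 0.05. Differences of 2-fold or more at both times were 4 higher and 3 lower (1.54% of all genes).

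The cationic amino acid carriers include Slc7a2, the arginine carrier known to rise in macrophages given type 2 cytokines, and Slc7a1, its constitutive counterpart. Slc7a2 had weak signals throughout and passed the rule only through both agents together, reading 13.4 and 15.9 there, 3.90 and 5.35 with ATRA, 6.06 and 12.4 with IL-13, and 3.20 and 16.6 in control. The 24 h control signal was the highest of the 8, and no comparison called the gene (IL-13 minus control 0.25 ± 0.51, adjusted p = 0.771). Slc7a1 read 3615 and 3579 with both agents, 3961 and 4135 with ATRA, 2868 and 2287 with IL-13, and 3684 and 2936 in control, and was not called in any comparison. Its IL-13 signals were the lowest at each time.

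Both agents together, against control, raised 10 solute carriers and lowered 8, 7.83% of the members where 8.42% of all genes were called, 3.22% higher and 5.2% lower. With normexp correction 16 members were called higher and 20 lower, where 2000 of all 15456 genes were called. The genes called higher included Slc14a1 (3.54 ± 0.26), Slc12a5 (3.15 ± 0.22), Slc26a9 (2.99 ± 0.33) and Slco2b1, which was dim in control and at least 9.68-fold higher. Slc14a1 had its highest signals here, 111 and 200 with both agents, against 13.3 and 12.5 in control (adjusted p = 0.00551), with 42.3 and 68.3 for ATRA and 27.2 and 49.2 for IL-13 in between. Its difference for IL-13 alone was 1.51 ± 0.26 (adjusted p = 0.0676), not called, and its departure from the sum of the single differences was -0.03 ± 0.36. Slc31a2 (1.49 ± 0.19), Slc2a6 (1.16 ± 0.13), Slc30a9 (1.04 ± 0.11) and Slc15a3 (1.60 ± 0.18) were called as well, with 0.97 and 0.43 on the other 2 probes of Slc30a9. Slc15a3 read 1764 and 1797 with both agents, against 520 and 660 in control (adjusted p = 0.0117). Every signal with both agents lay above every control signal, as the call on the same arrays favours.

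The other 2 genes called higher were mitochondrial. Slc25a51, a carrier of NAD+ into mitochondria, read 6308 and 7089 with both agents, against 3764 and 3389 in control (0.90 ± 0.13, adjusted p = 0.0195). Its other probe, above background on all 8 arrays, gave only 0.26. Slc25a15, the ornithine carrier that links the cytosolic and mitochondrial steps of the urea cycle in liver, read 125 and 133 with both agents, against 76.8 and 91.1 in control (0.63 ± 0.13, adjusted p = 0.0443). Neither was called with 1 agent, and the single-agent signals of Slc25a51 lay between on the probe used, at 5618 and 5259 with ATRA and 4549 and 4741 with IL-13, while the other probe gave -0.26 for IL-13 minus control.

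The 8 genes called lower included carriers of calcium, bicarbonate, amino acids, choline and riboflavin. Slc24a3, an exchanger of sodium for calcium and potassium, read 54.3 and 20.3 with both agents, against 189 and 161 in control (-2.40 ± 0.31, adjusted p = 0.0163). Slc8a1, a sodium-calcium exchanger, read 43.4 and 36.8 with both agents, against 111 and 76.7 in control (-1.21 ± 0.15, adjusted p = 0.0154). For both calcium exchangers the single-agent signals lay between. Slc43a2 read 453 and 308 with both agents, against 1357 and 997 in control (-1.64 ± 0.14, adjusted p = 0.00720), and its second probe gave -0.92. Slc44a1, a choline carrier, read 1394 and 1272 with both agents, against 2244 and 2216 in control (-0.74 ± 0.14, adjusted p = 0.0409, and -1.12 on its other probe). Slc22a15, of the organic cation family, read 179 and 170 with both agents, against 319 and 270 in control (-0.75 ± 0.12, adjusted p = 0.0288).

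Slc4a9, a bicarbonate carrier, read 41 and 31.4 with both agents, against 66 and 65.9 in control (-0.88 ± 0.14, adjusted p = 0.0252). The remaining 2 had passed the rule through control alone and were dim with both agents. Slc52a3, a riboflavin carrier, read 9.58 and 6.70 with both agents, against 29 and 24.5 in control (at least 2.79-fold lower, adjusted p = 0.0119). Slc4a8, a sodium-driven chloride-bicarbonate exchanger, was at least 1.38-fold lower, with -0.06 on its other passing probe, and its call was lost under each of the 14 alternatives that could be fitted for it (adjusted p = 0.0436, between 0.0572 and 0.949 under them). At the unadjusted level 64 members (27.8%) had p under 0.05, near the 28.6% of all genes, and 2-fold or larger differences at both times were 8 higher and 5 lower (4.45% of all genes). With any 1 array of control, ATRA or both agents left out, fewer members were called, and fewer of all genes as well. Members called were fewest without a control array of either time or without the array of both agents at 24 h.

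**Figure D3:**
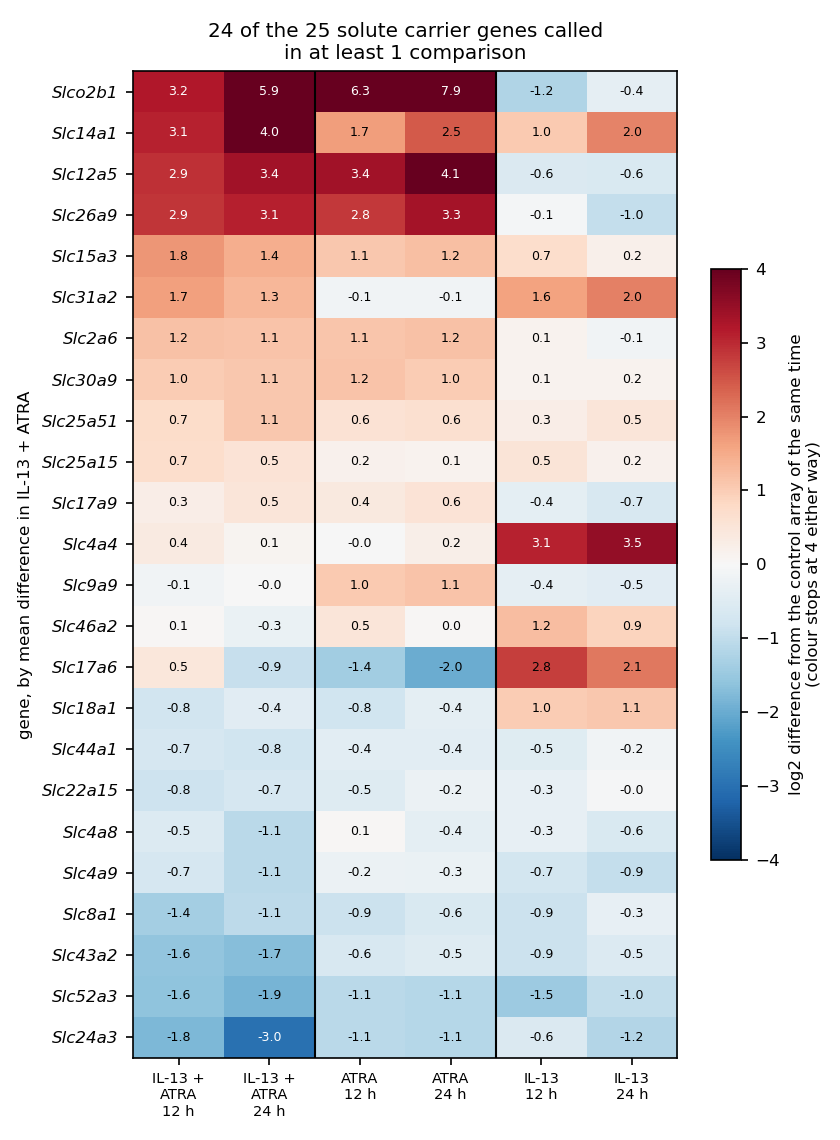
Log2 difference of each treated array from the control array of the same time, for 24 of the 25 genes called in at least 1 comparison, ordered by the mean difference with both agents, with red for higher, blue for lower and colours that stop at 4. Slco2b1, with 3.19 and 5.90 for both agents and 6.32 and 7.90 for ATRA over control arrays where it was dim, stands at the top, and Slc24a3, with -1.80 and -2.99 for both agents, at the bottom.

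Whether the ATRA difference depended on IL-13 was tested as an interaction, which limma called for 0 members (10 at an unadjusted p under 0.05, 4.35% against 3.66% of all genes) and for 0.0194% of all genes. Slc4a4 had the lowest adjusted p (0.176), but it passed the rule through IL-13 alone and was dim on the other 6 arrays, so its fitted interaction of -3.17 ± 0.27 rests on signals at background and the data give only the bound of at least 1.68-fold lower with both agents than with IL-13. Slco2b1, dim with IL-13 and in control, had a fitted interaction of -1.78 ± 0.87, also no measured size. Slc12a5, well above background on all 8 arrays, had one of 0.01 ± 0.30. Slc17a6 was not well above background on every array, so its fitted interaction of -0.98 ± 0.44 rests partly on dim signals. Across the times, limma called 0 members for 24 h against 12 h, with 41 at an unadjusted p under 0.05 (17.8%, against 12.1% of all genes). For the difference of an effect between times it called 0 members as well, with 26 unadjusted for ATRA and 22 for IL-13, and a lowest adjusted p of 0.517 and 0.473. The share over all genes was not counted for that fit, so whether 26 and 22 differ from it cannot be told. That last fit had 1 residual degree of freedom.

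By substrate, the calls were spread over many groups. Over the 3 comparisons plotted, the groups with calls held 1 to 3 of them each, and the group medians of the 13 groups with 5 or more genes lay between -0.44 (cation and chloride carriers, IL-13 minus control) and 0.29. Mitochondrial carriers, the largest group, had 0 of 40 genes called in each of these 3 comparisons, with medians of 0.01 for both agents minus IL-13, 0.03 for ATRA and 0.10 for IL-13. Of all genes 2.59%, 1.77% and 1.23% were called in the same order, so 0 of 40 does not set the group apart. Amino acid carriers had 16 of 25 positive differences with ATRA (median 0.16), 16 of 25 with both agents minus IL-13 (median 0.20) and 9 of 25 with IL-13 (median -0.16), with 1 call, Slc43a2. Nucleotide sugar carriers, which feed the Golgi, had 0 of 21 called in all 5 comparisons, as had monocarboxylate and dicarboxylate carriers with 0 of 10. Between 0.356% and 8.42% of all genes were called in the 5 comparisons. With so few genes, these counts do not set the 2 groups apart from all genes. The range with ATRA was -0.46 to 0.38 for nucleotide sugars.

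**Figure D4:**
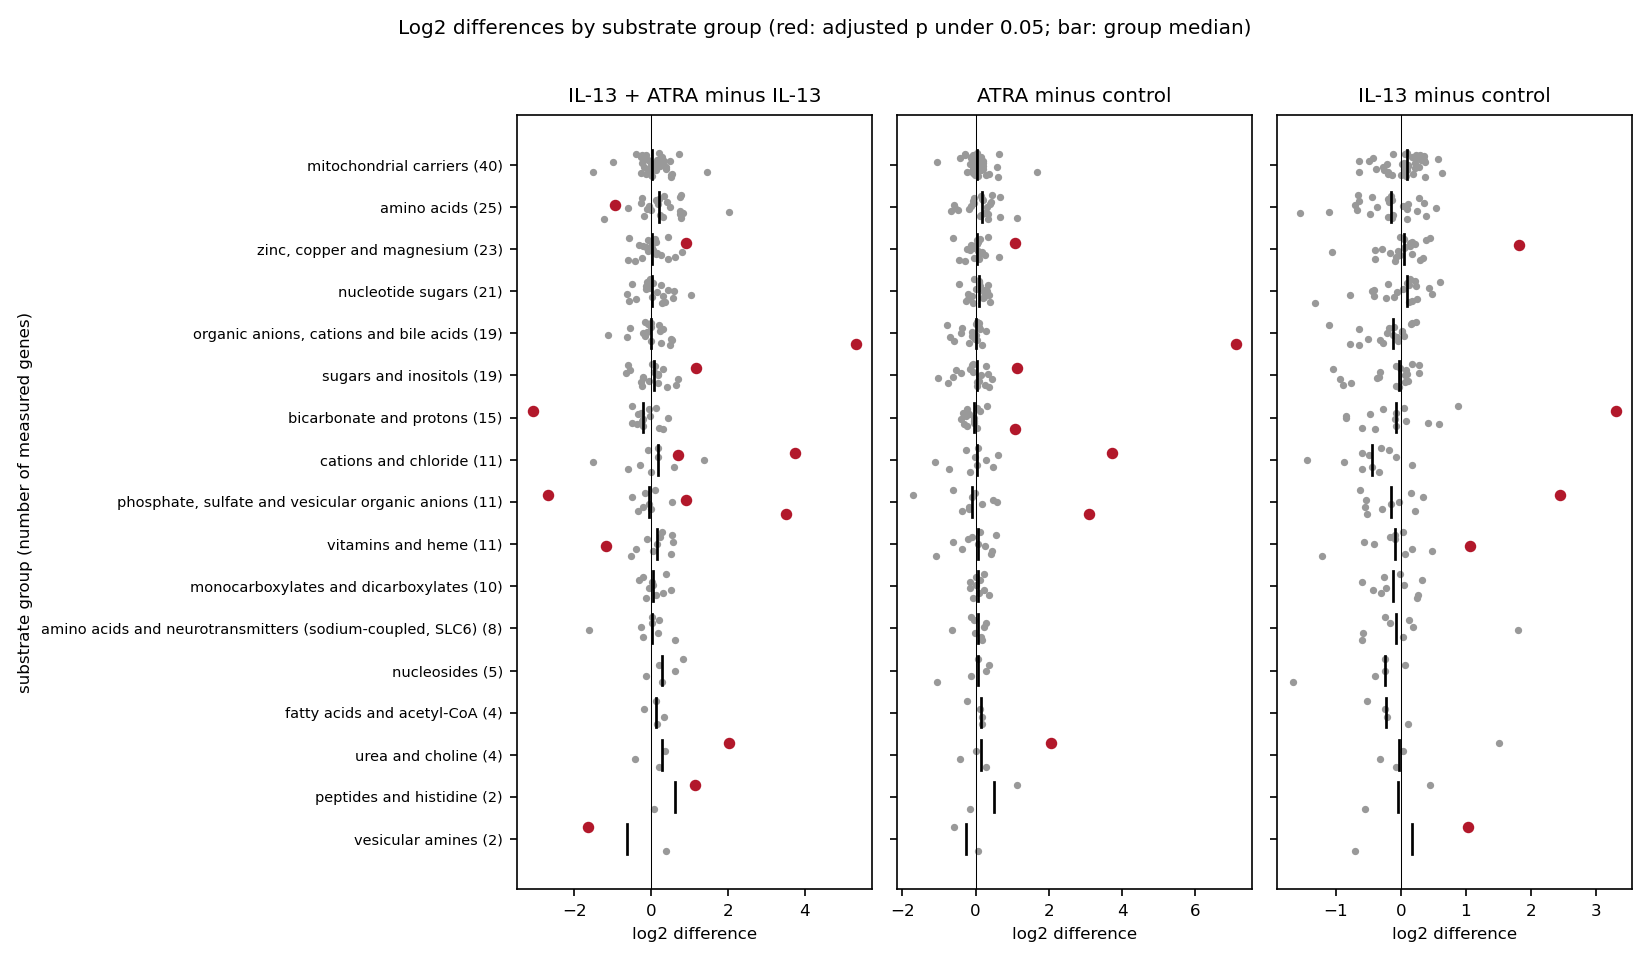
Log2 difference of each of the 230 measured genes by substrate group, in panels for IL-13 with ATRA minus IL-13, ATRA minus control and IL-13 minus control, with red points for called genes and a bar at the group median. Medians of groups with 5 or more genes lie between -0.44 and 0.29, those of the smaller groups reach 0.62 and -0.63, and Slco2b1, plotted at 5.33 and 7.11 against arrays where it was dim, is the highest point of both ATRA panels.

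A list of 39 carriers with textbook roles in macrophages or metabolism, drawn up with earlier results of these data known, had 38 measured genes. Of these, 2 were called higher with ATRA against control (Slco2b1 and Slc2a6), where 0.893% of all genes were. With both agents, 3 were called higher against IL-13 and 3 against control, where 1.11% and 3.22% of all genes were, both times Slco2b1, Slc2a6 and Slc15a3. The other 2 comparisons called 0 of the list, and 0 were called lower in any. Medians for the list were 0.10 with ATRA and -0.05 with IL-13. Slc38a2, an amino acid carrier that starvation induces, read 7569 and 8348 with both agents, 10706 and 10590 with ATRA, 6999 and 7282 with IL-13, and 11234 and 10969 in control. The signals in the 2 treatments that hold IL-13 lay below those of the other 2, but the gene was not called (IL-13 minus control -0.64 ± 0.11, adjusted p = 0.0675). How many of all genes separate in this way was not counted. Its 3 other probes, on all 8 arrays, gave smaller values, between -0.39 and -0.24 for IL-13 minus control and between -0.17 and -0.05 for both agents minus ATRA. Slc48a1, a heme carrier of the lysosome, read 7424 and 6332 with both agents, 6507 and 6170 with ATRA, 6803 and 6359 with IL-13, and 5482 and 4017 in control, and was not called (both agents minus control 0.55 ± 0.13, adjusted p = 0.0688). The glucose carrier Slc2a1, the lactate carriers Slc16a1 and Slc16a3 and the cystine carrier Slc7a11 had, on the probes used, differences between -0.61 and 0.53 in all 5 comparisons and were not called.

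The genes whose log2 signals were most like those of Slco2b1 over the 8 arrays were Slc12a5 (Pearson r 0.978), Slc26a9 (0.953), Slc20a1 (0.942), Slc2a6 (0.937) and Slc25a10 (0.937), a description of 8 arrays that share treatments. Slco2b1 was dim in control and with IL-13 alone, so these values rest partly on signals at background. Slc20a1, a sodium-phosphate cotransporter, read 8628 and 7859 with both agents, 8657 and 8719 with ATRA, 6346 and 5118 with IL-13, and 5932 and 5741 in control. On the probe used, all its signals with ATRA lay above those without it, but it was not called (ATRA minus control 0.57 ± 0.12, adjusted p = 0.105). Its other probe gave 0.29 for ATRA minus control, 0.12 for both agents minus IL-13 and 0.05 for both agents minus control. Slc25a10, the mitochondrial dicarboxylate carrier, read 6629 and 7208 with both agents, 6822 and 7125 with ATRA, 4840 and 3558 with IL-13, and 4806 and 4227 in control, again with every signal of an ATRA treatment above every other. Slc20a1 and Slc25a10 were picked for likeness to Slco2b1 on these arrays, so their separation by ATRA largely follows from the choice.

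Other genes of membrane transport were given by lists, to be read against the same shares of all genes. Of 20 ATP-binding cassette transporters 18 were measured, all on every array, and 3 were called higher with ATRA: Abca1, which exports cholesterol and phospholipid (2.01 ± 0.21), Abcc3, which exports organic anions and conjugates (1.45 ± 0.21), and Abcg2, a multidrug exporter (0.77 ± 0.10). Both agents against IL-13 called Abca1 and Abcc3 higher, both agents against control called Abca1, Abcd2 and Abcg2 higher, and the other 2 comparisons called 0. Of 14 ancillary subunits and regulators of carriers 12 were measured. Mlxipl, the glucose-responsive transcription factor ChREBP, was called higher with ATRA (5.63 ± 0.35) and with both agents against IL-13 (at least 61.9-fold) and against control (5.93 ± 0.35). Txnip, which lowers glucose uptake, was called higher (0.50 ± 0.10) and Tfeb, a regulator of lysosome genes, lower (-0.81 ± 0.16) with both agents against control.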

How the data were processed

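Cy3-labelled RNA of RAW264.7 cells was hybridized to 8 mouse arrays of Agilent design 014868. The authors used, per the file headers, Feature Extraction 10.7.1.1, whose processed signal (unit intensity, background-subtracted) was deposited with no normalization between arrays. The authors also deposited a table of log2 values, whose method is not given in the sources used here; it served as an alternative. Here, control spots and spots flagged as non-uniform or outlying were left out, repeated spots averaged, and the log2 of each array's 75th percentile was subtracted and the mean percentile added back. A limma 3.58.1 model (R 4.3.3) of 4 treatments and time was applied to 15456 genes, with 3 residual degrees of freedom and a prior of 2.41; tests were two-sided, with Benjamini-Hochberg adjustment and a threshold of 0.05. The fit was tested on simulated data. Replicate 1 is the 12 h array and replicate 2 the 24 h array, so the labels' times pair the treatments, and the time term is that block. The number of arrays limits the precision.

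The members, substrate groups, lists and tests were chosen with earlier results of these data known. Named genes were the called members, up to 12 a direction in each comparison, the member with the largest difference in each substrate group, a list of 39 textbook transporters and the 5 genes most like Slco2b1; those not called are partly given by counts. Alternatives were another normalization, background correction, filter, variance moderation, no time term, the authors' table, and leaving out each array. No adjustment was made over the list alone. The values of 1 called gene are not reported here.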

Additional observations from a re-analysis of the deposited data

How the results depend on the processing

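The counts of called carriers moved with several of the alternatives. With quantile normalization, and likewise with the authors' table, the counts were 7 for ATRA against control, 5 for IL-13 against control, 13 for both agents against IL-13, 0 for both against ATRA, 19 for both against control and 1 for the interaction (Slc4a4, lower). Over all 15456 genes the calls were 275, 166, 391, 46, 1279 and 3 with quantile normalization, against 274, 190, 401, 55, 1301 and 3 in the fit reported above. With normexp background correction the member counts were 13, 10, 21, 3, 36 and 0 in the same order, with splits of 10 higher and 3 lower for ATRA, 3 and 7 for IL-13, 1 and 2 for both against ATRA and 16 and 20 for both against control, and with trended and robust variance moderation 15, 16, 23, 2, 32 and 0. Over all 15456 genes they were 576, 533, 738, 108, 2000 and 1 with normexp correction, and 618, 653, 828, 168, 2102 and 0 with trended and robust moderation. Under the filter for all 8 arrays, which leaves 201 members, the member counts were 7, 6, 9, 2, 20 and 0, and those over all 13694 genes 426, 273, 479, 89, 1489 and 0. With no filter on dim probes, where 27343 genes shared the adjustment, limma called 0 members in each comparison, and 0, 1, 7, 3, 35 and 0 of all genes. Members at an unadjusted p under 0.05 were 35, 41, 46, 26, 40 and 6 there, against 53, 63, 66, 41, 64 and 10 with the filter. Without the replicate block, that is with no time term, the counts were 5, 4, 10, 1, 19 and 0, of which 4, 4, 10, 0 and 17 were the same genes as with it in the 5 comparisons. The 1 call for both against ATRA was another gene, higher. Over all genes the counts were 271, 163, 342, 69, 1135 and 1 with no time term. With 1 array left out in turn, counts ranged from 0 to 8 for ATRA against control, 0 to 7 for IL-13 against control, 0 to 15 for both agents against IL-13, 0 to 1 for both against ATRA, 2 to 22 for both against control, and were 0 for the interaction. In those fits the lone remaining array of a treatment is assumed to vary like the others. Where fewer members were called than with all 8 arrays, fewer of all genes were called too. Where more members were called, more of all genes were called as well, except for ATRA against control, where fewer were.

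Over the 45 calls that the 5 comparisons made, the sign was the same under each alternative that could be fitted. The calls of Slc9a9 (both agents against ATRA) and Slc4a8 (both against control) were lost under every one. All 45 were lost under 1 or more alternatives, and 17 of them were lost under more alternatives than they held under. Slc12a5 was lost in 1 or 2 of 15 alternatives in its 3 comparisons. Slc14a1 was lost in 1 of 15 for both agents against control, in 8 for both against IL-13 and in 10 for ATRA against control. Slc18a1 and Slc46a2 were each lost in 11 of 14 for IL-13 against control. Genes dim in 1 group give only bounds, and 2 arrays a treatment limit what could be called. The cause of these changes was not tested.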
